A study of Mus musculus with 24 samples.

Results

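The 8 genes of hepatic fatty acid use Ppara, Cpt1a, Cpt2, Acaa1b, Ehhadh, Cyp4a10, Cyp4a14 and Pdk4, were followed across the livers of 24 mice. They were found by symbol in the table of read counts, in which they are 8 of 23240 rows, and all 8 passed the filter on low counts. All mice were female NSG mice, an immunodeficient strain without mature lymphocytes, aged 8 weeks per the labels. Each received tail vein injections 2 times a week over 5 weeks, and livers were collected 2 days after the final one. There were 4 groups of 6 libraries. The first group, called MDA-MB-231 EV, received about 10 µg per injection of extracellular vesicles (EVs, membrane particles that cells shed) of the human breast cancer line MDA-MB-231. The second, MCF10A/miR-122 EV, received the same amount of EVs of the human non-tumorigenic breast epithelial line MCF10A with miR-122, a microRNA abundant in liver, as its label names it. The third, MCF10A EV, received the same amount of EVs of MCF10A cells, and its library names carry the vector name pBABE. The fourth, PBS, received buffer alone. Human cell lines thus supplied every vesicle, and the hosts lack lymphoid immunity.

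PPAR alpha, the product of Ppara, is a nuclear receptor that binds fatty acids and, paired with a retinoid X receptor, switches on genes of fatty acid breakdown in the liver, above all in fasting. Cpt1a and Cpt2 encode the outer and inner carnitine palmitoyltransferases that carry long-chain fatty acids into mitochondria. Acaa1b and Ehhadh encode a thiolase and the bifunctional enzyme of peroxisomal beta-oxidation, and Cyp4a10 and Cyp4a14 encode cytochromes that hydroxylate the far end of the fatty acid chain (omega-oxidation). Pdk4 encodes a kinase that shuts off pyruvate dehydrogenase and so spares glucose. All except Ppara itself are textbook targets of the receptor in mouse liver, and Ppara is also induced by fasting.

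Totals ran from 21.3 to 33.7 M counts per library. The labels of 12 libraries conflict. The 6 titled MCF10A/miR-122 EV carry library names that point to MDA-MB-231, and the 6 titled MDA-MB-231 EV carry names that point to miR-122. Groups are called here by their titles, and exchanging the identities exchanges the values of these groups. The libraries were also split here by number into 2 sets of 12. The numbers run in order of the groups, so each set holds 2 whole groups. Serpina3a, a serine protease inhibitor gene, had 0.285 to 5.85 CPM (counts scaled to the library size with edgeR's cpm function) in the 12 MDA-MB-231 EV and MCF10A/miR-122 EV libraries (the last 12 by number), against 109.6 to 325 CPM in the 12 of MCF10A EV and PBS (the first 12). Totals were 26.8 to 33.7 M in the last 12 and 21.3 to 29.3 M in the first 12. Set and treatment cannot be told apart in the 4 comparisons that cross the sets. Serpina3a was picked with its values in view, so it cannot show a set apart from treatment. Within a set lie the comparison between MCF10A EV and PBS and that between MDA-MB-231 EV and MCF10A/miR-122 EV. Hepatocyte markers summed to 107961 to 136597 CPM in the 12 libraries of MDA-MB-231 EV and MCF10A/miR-122 EV and to 92820 to 120567 CPM in the 12 of MCF10A EV and PBS, so the libraries carried liver RNA. Adipocyte markers summed to at most 0.166 CPM in any library.

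Of the 8 genes, Cpt2 alone was called changed. It was lower in the 2 groups of the last 12 libraries, MDA-MB-231 EV and MCF10A/miR-122 EV, than in MCF10A EV and in PBS, and these are the comparisons that cross the sets. The other 7 genes passed the threshold in none of the 6 comparisons. Most of them moved together from mouse to mouse.

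Counting over all genes, 5.33% of the 13773 genes tested were called higher and 6.34% lower in MDA-MB-231 EV than in PBS, at an adjusted p of 0.05 from edgeR's quasi-likelihood test with Benjamini-Hochberg adjustment. Of the 8 genes, 0 were higher and 1 was lower there. In MCF10A/miR-122 EV against PBS, 8.35% of all genes were higher and 9.53% lower, and again 0 of the 8 were higher and 1 was lower. The same counts, 0 and 1, were found in MDA-MB-231 EV against MCF10A EV, where 3.24% of all genes were higher and 4.44% lower. They were also found in MCF10A/miR-122 EV against MCF10A EV, where 7.53% were higher and 8.71% lower. A single gene of 8 cannot be set apart from those background shares, so the counts say nothing of the 8 as a group. Between the groups of 1 set none of the 8 passed, either by edgeR, by DESeq2 or by limma-voom, or at an unadjusted edgeR p of 0.05. Over all genes, 0.370% were higher and 0.697% lower in MCF10A EV than in PBS, and 0.0436% were higher and 0.211% lower in MDA-MB-231 EV than in MCF10A/miR-122 EV.

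**Figure D1:**
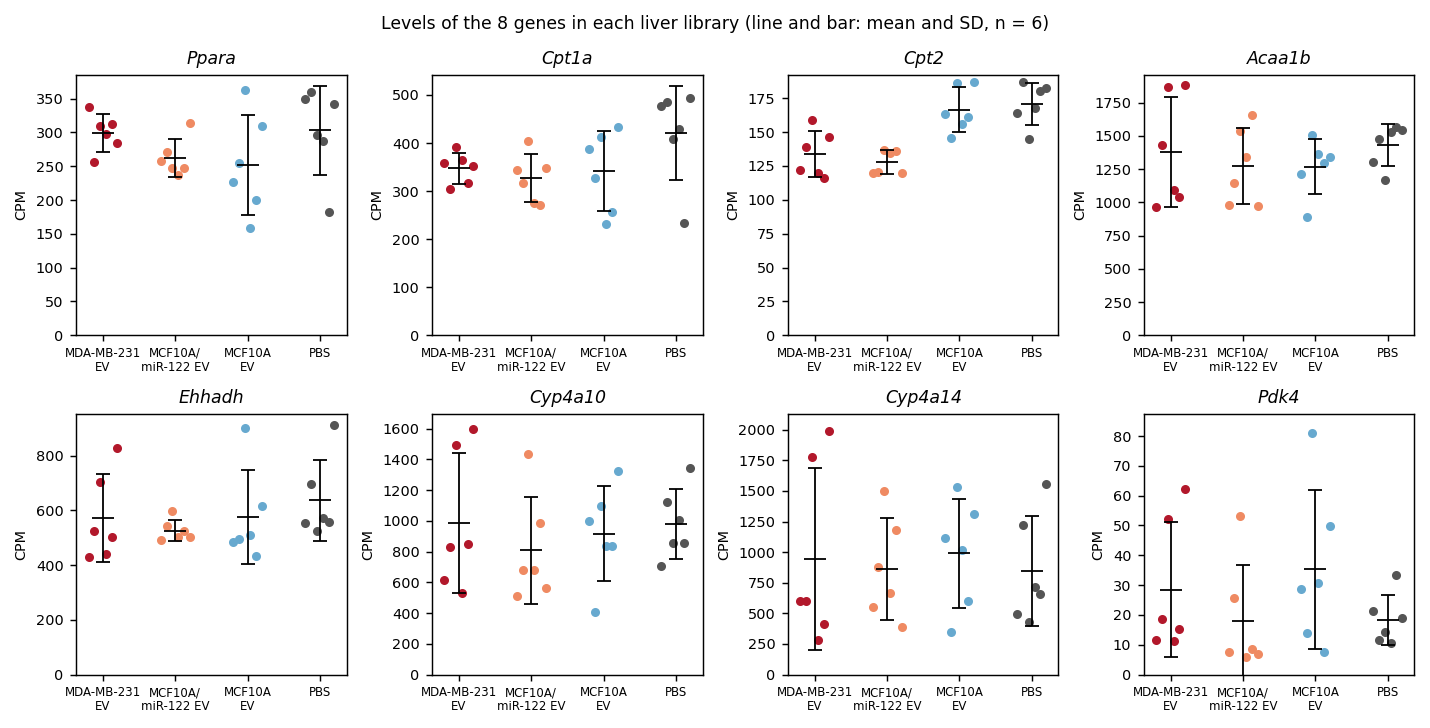
Level of each of the 8 genes in CPM (vertical axis, from 0) in the 24 liver libraries, by group (horizontal axis). Points are libraries, and the line and bar are the mean and SD of 6. Cpt2 sits at 116 to 159 CPM in the 12 libraries of MDA-MB-231 EV and MCF10A/miR-122 EV, against 145 to 187 CPM in the 12 of MCF10A EV and PBS, while in the other 7 panels all 4 groups overlap.

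The receptor gene comes first. Ppara had 255.6 CPM at the lowest, 304 at the median and 337 at the highest in MDA-MB-231 EV libraries, and 236, 252 and 314 CPM in those of MCF10A/miR-122 EV. In MCF10A EV libraries it had 158, 241 and 362 CPM, and in PBS libraries 183, 319 and 360.1 CPM. The 4 groups overlapped, and the widest ranges were those of MCF10A EV and PBS, where the highest library was 2.29 and 1.97 times the lowest. Against PBS, Ppara differed by -0.02 (log2, SE 0.16) in MDA-MB-231 EV, by -0.21 (SE 0.16) in MCF10A/miR-122 EV and by -0.27 (SE 0.16) in MCF10A EV. The adjusted p-values by edgeR were 0.961, 0.389 and 0.389. The 95% interval of the fold in MDA-MB-231 EV over PBS was 0.789 to 1.24, and differences within it were not resolved. In MDA-MB-231 EV over MCF10A EV the difference was 0.25 (SE 0.16, adjusted p = 0.372 by edgeR), and 6 of 6 MDA-MB-231 EV libraries lay above the MCF10A EV median. This too did not pass the threshold.

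The carnitine shuttle held the change that passed. Cpt2, the inner enzyme, had 116, 130.3 and 159 CPM (lowest, median and highest) in MDA-MB-231 EV libraries, and 119.5, 128 and 137 CPM in those of MCF10A/miR-122 EV. It had 145, 162 and 187 CPM in MCF10A EV libraries, and 145, 174 and 187 CPM in PBS libraries. All 6 MCF10A/miR-122 EV libraries were below every MCF10A EV and PBS library. In MDA-MB-231 EV, replicates 3 and 6, at 159 and 146 CPM, reached into the range of MCF10A EV and PBS, and the other 4 lay below it. Bulk RNA gives a level for the whole tissue, so fewer cells of a type and less RNA per cell cannot be told apart.

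Cpt2 averaged 128 ± 8.73 CPM in MCF10A/miR-122 EV and 171 ± 15.5 CPM in PBS (SD, n = 6 each), a log2 difference of -0.42 (SE 0.083, adjusted p = 0.00118 by edgeR). This is a fold of 0.747, with a 95% interval of 0.663 to 0.842. In MDA-MB-231 EV it averaged 134 ± 17.0 CPM (SD, n = 6), a log2 difference of -0.36 from PBS (SE 0.083, adjusted p = 0.00685 by edgeR). Every one of the 6 libraries of either group lay below the PBS median. Against MCF10A EV, at 167 ± 16.7 CPM (SD, n = 6), the log2 differences were -0.38 for MCF10A/miR-122 EV (SE 0.083, adjusted p = 0.00277 by edgeR) and -0.32 for MDA-MB-231 EV (SE 0.083, adjusted p = 0.0202 by edgeR). The last of these calls was lost when MDA-MB-231 EV replicate 4 was left out (-0.29, adjusted p = 0.0534 by edgeR) or replicate 5 (-0.28, adjusted p = 0.0531). Both are low Cpt2 libraries of that group, at 120.1 and 116 CPM.

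Within the sets Cpt2 passed in neither comparison. The log2 difference was -0.04 in MCF10A EV over PBS (SE 0.083, adjusted p = 0.841 by edgeR), with a fold interval of 0.864 to 1.10. In MDA-MB-231 EV relative to MCF10A/miR-122 EV it was 0.07 (SE 0.083, adjusted p = 0.922 by edgeR), with an interval of 0.929 to 1.18. The called differences in Cpt2 were thus those between the sets. Other values differed between the sets too. Of 5 muscle markers, the 1 tested, Acta1, was lower in MDA-MB-231 EV and in MCF10A/miR-122 EV in each of the 4 crossing comparisons. The 5 markers summed to 1.13 to 1.80 CPM in MDA-MB-231 EV and 1.07 to 1.91 CPM in MCF10A/miR-122 EV, against 3.15 to 5.21 CPM in MCF10A EV and 3.56 to 4.92 CPM in PBS. Markers at 0 throughout a group were Mb in MDA-MB-231 EV, Ckm, Myh4 and Tnnt3 in MCF10A/miR-122 EV, Mb in MCF10A EV, and Ckm, Myh4 and Mb in PBS. Of 9 macrophage markers, 5 were higher in MCF10A/miR-122 EV than in PBS, with sums of 263 to 630.5 CPM in MCF10A/miR-122 EV, against 245 to 307 CPM in PBS. Against MCF10A EV, with sums of 226 to 277 CPM, 7 of the 9 were higher in MCF10A/miR-122 EV. None of the 9 passed by edgeR in MDA-MB-231 EV against PBS or MCF10A EV, and the sums in MDA-MB-231 EV were 201 to 309.7 CPM. Within that set 3 of the 9 were lower in MDA-MB-231 EV than in MCF10A/miR-122 EV, so the macrophage markers were higher in 1 group and not along the sets. Of 8 hepatocyte markers, 2 were higher in MCF10A/miR-122 EV than in PBS and 1 in MDA-MB-231 EV than in PBS, and 0 were lower in either. Against MCF10A EV 0 of the 8 passed in either group. The shares of all genes given above are the background for these marker counts. The part of these cell types in the Cpt2 values was not tested.

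Cpt1a, the outer and rate-limiting enzyme, had 303, 355 and 391 CPM in MDA-MB-231 EV libraries, and 272, 329.8 and 403 CPM in those of MCF10A/miR-122 EV. It had 231.2, 357 and 434 CPM in MCF10A EV libraries, and 234, 453 and 495 CPM in PBS libraries. In each EV group 6 of 6 libraries lay below the PBS median. PBS replicate 5, at 234 CPM, lay below all EV libraries except MCF10A EV replicate 4, at 231.2 CPM, so the groups overlapped. The log2 differences from PBS were -0.28 in MDA-MB-231 EV, -0.37 in MCF10A/miR-122 EV and -0.30 in MCF10A EV, each with an SE of 0.16. Their adjusted p-values by edgeR were 0.267, 0.112 and 0.329, so none passed.

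Without PBS replicate 5 the difference in MCF10A/miR-122 EV became -0.49 (SE 0.14) and passed, with an adjusted p of 0.0145 by edgeR. MCF10A EV replicate 4 and PBS replicate 5 stood apart in Ppara as well, with the lowest values of all 24 libraries (158 and 183 CPM), and in clock genes, whose RNA cycles over the day. Npas2, a clock activator, had 12.1 CPM in MCF10A EV replicate 4 and 12.4 CPM in PBS replicate 5, against 1.72 to 6.77 CPM in the other MCF10A EV libraries and 0.404 to 2.45 CPM in the other PBS libraries. Dbp, a clock output gene, had 2.20 and 3.57 CPM in these libraries, against 3.56 to 23.9 CPM in the rest of MCF10A EV and 39.0 to 118 CPM in the rest of PBS. When both were left out, a setting chosen after seeing the data, Cpt1a passed in MCF10A/miR-122 EV over PBS (-0.49, SE 0.12, adjusted p = 0.00653 by edgeR) and in MDA-MB-231 EV over PBS (-0.40, SE 0.12, adjusted p = 0.0296). With all libraries and a replicate block it also passed in MCF10A/miR-122 EV over PBS (-0.36, adjusted p = 0.0487 by edgeR). Whether the replicate numbers pair the mice was not tested. The call on Cpt1a thus depends on the libraries and on the model.

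Clock genes differed between the groups too. Of 16 clock genes tested, 3 were higher and 2 lower in MDA-MB-231 EV than in PBS, where 5.33% of all genes were higher and 6.34% lower. In MCF10A/miR-122 EV 5 were higher and 2 lower than in PBS, against 8.35% and 9.53% of all genes. The 2 lower clock genes in each cannot be set apart from those shares. In MCF10A EV 0 were higher than in PBS and 3 were lower, against 0.370% and 0.697% of all genes. Relative to MCF10A EV, 10 were higher and 2 lower in MDA-MB-231 EV (3.24% and 4.44% of all genes). In MCF10A/miR-122 EV 10 were higher and 4 lower than in MCF10A EV (7.53% and 8.71% of all genes). None passed in MDA-MB-231 EV relative to MCF10A/miR-122 EV by edgeR. Arntl, the core activator, averaged 3.57 ± 0.864 CPM in MDA-MB-231 EV, 2.65 ± 1.10 CPM in MCF10A/miR-122 EV, 20.1 ± 6.65 CPM in MCF10A EV and 11.4 ± 9.86 CPM in PBS (SD, n = 6 each). Within groups, after centring over the 24 libraries and as a description with no test, Ppara had r = -0.58 with Npas2, -0.40 with Arntl, 0.45 with Dbp and -0.041 with Per2, a clock repressor. Cpt1a had r = -0.59, -0.37, 0.49 and -0.27 with the same genes, and Cpt2 0.055, 0.12, -0.14 and -0.31. Pdk4 had its strongest value with Per2, at -0.63. The 2 libraries with high Npas2 and low Ppara and Cpt1a are among these 24. The part of the clock in the levels of the 8 genes was not tested.

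In the peroxisome, Acaa1b had 966, 1262 and 1882 CPM in MDA-MB-231 EV libraries, and 973, 1242 and 1657 CPM in those of MCF10A/miR-122 EV. It had 889, 1320.0 and 1508 CPM in MCF10A EV libraries, and 1172, 1504 and 1564 CPM in PBS libraries. All groups overlapped, with differences of -0.17 to 0.12 on the log2 scale over the 6 comparisons. In MDA-MB-231 EV over PBS it differed by -0.05 (SE 0.17, adjusted p = 0.871 by edgeR), with a fold interval of 0.758 to 1.22. Acaa1b is nearly a copy of Acaa1a, the other peroxisomal thiolase gene. In GENCODE M21 transcripts, 39.5% of its 32-base words also occur in Acaa1a, and the longest identical stretch is 327 bases. How reads of that sequence were assigned is not given in the sources used here, so the split between the pair is uncertain. Acaa1b had 1.84 to 2.10 times the CPM of Acaa1a in the 24 libraries.

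Ehhadh had 431, 514 and 829.3 CPM in MDA-MB-231 EV libraries, and 490.3, 513 and 598 CPM in those of MCF10A/miR-122 EV. It had 434, 504 and 903 CPM in MCF10A EV libraries, and 525, 565 and 912 CPM in PBS libraries. MCF10A/miR-122 EV had the narrowest range, with a highest library 1.22 times the lowest, against 1.92, 2.08 and 1.74 times in MDA-MB-231 EV, MCF10A EV and PBS. The largest difference was in MCF10A/miR-122 EV over PBS, at -0.27 (log2, SE 0.17, adjusted p = 0.291 by edgeR), and its fold interval was 0.646 to 1.06.

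The omega-oxidation cytochromes varied more between mice. Cyp4a10 had 531, 839 and 1599.7 CPM in MDA-MB-231 EV libraries, and 513, 679 and 1432 CPM in those of MCF10A/miR-122 EV. It had 404, 917 and 1324 CPM in MCF10A EV libraries, and 705, 931 and 1345 CPM in PBS libraries. The highest library was 2.79 to 3.28 times the lowest in the 3 EV groups and 1.91 times in PBS. None of its 6 differences passed, and they ran from -0.28 in MCF10A/miR-122 EV over PBS (log2, SE 0.29, adjusted p = 0.534 by edgeR) to 0.29 in MDA-MB-231 EV relative to MCF10A/miR-122 EV (SE 0.29, adjusted p = 0.880). Sequence is shared here as well, since 43.9% of the 32-base words of Cyp4a10 occur in other genes, 35.7% in Cyp4a32 and 25.5% in Cyp4a31. Cyp4a10 had 1.82 to 2.32 times the CPM of Cyp4a32 and 3.49 to 4.05 times that of Cyp4a31. How far shared reads enter the values of the 3 genes was not measured, so these values are uncertain.

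Cyp4a14 had 279, 604 and 1987 CPM in MDA-MB-231 EV libraries, and 391, 769.7 and 1498 CPM in those of MCF10A/miR-122 EV. It had 346, 1068 and 1536 CPM in MCF10A EV libraries, and 433, 686 and 1557 CPM in PBS libraries. In MDA-MB-231 EV the highest library was 7.13 times the lowest, and replicates 3 and 6, at 1776 and 1987 CPM, stood far above the other 4, of which the highest had 605 CPM. Its differences ran from -0.20 to 0.23 (log2, SE 0.45 each), and in MDA-MB-231 EV over PBS the fold interval was 0.589 to 2.11. Differences within that interval were not resolved. Of its sequence 1.71% is shared, so this spread rests on reads that few other genes could claim.

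Pdk4, the kinase gene, had the lowest level and the widest spread. It had 11.2, 16.9 and 62.3 CPM in MDA-MB-231 EV libraries, and 5.96, 8.18 and 53.1 CPM in those of MCF10A/miR-122 EV. In MCF10A EV libraries it had 7.68, 29.7 and 80.9 CPM, and in PBS libraries 10.6, 16.6 and 33.2 CPM. The highest MCF10A EV library was 10.54 times the lowest, and in MCF10A/miR-122 EV replicate 3 alone had 53.1 CPM, against at most 25.8 CPM in the other 5. The largest differences were 0.95 in MCF10A EV over PBS (log2, SE 0.58, adjusted p = 0.404 by edgeR) and -0.97 in MCF10A/miR-122 EV over MCF10A EV (SE 0.58, adjusted p = 0.268). The second passed without MCF10A/miR-122 EV replicate 3 (-1.67, adjusted p = 0.0484 by edgeR), so 1 library decided it.

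**Figure D2:**
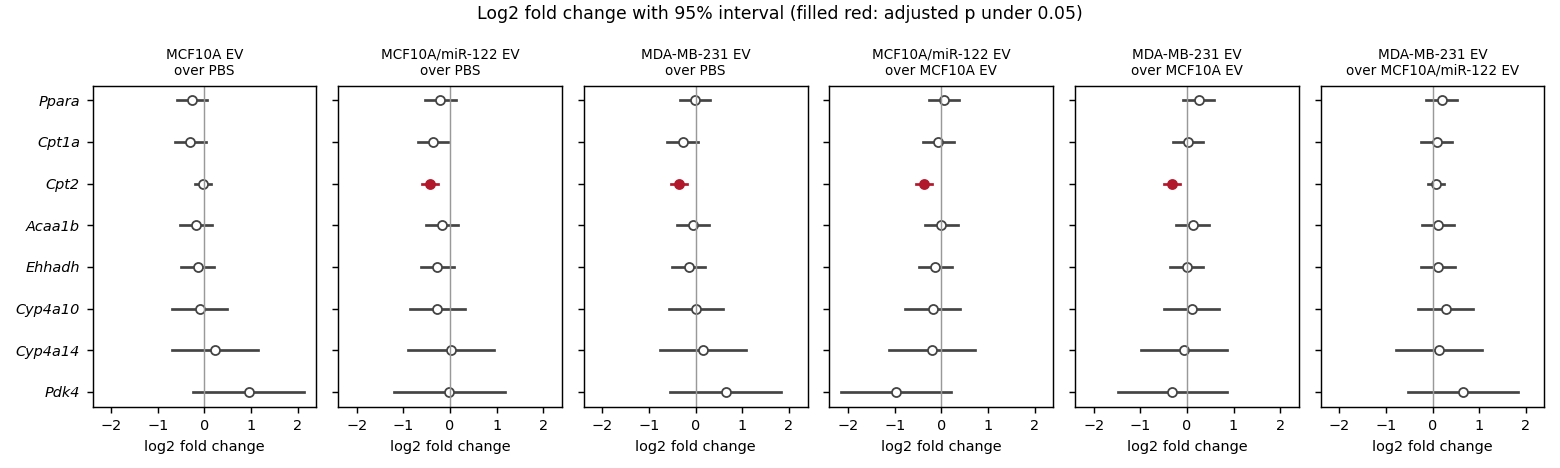
Log2 fold change (horizontal axis) of each gene (rows) in the 6 comparisons (panels), with the 95% interval as a line and a filled red point where the adjusted p by edgeR is under 0.05. Cpt2 is filled in the 4 panels that cross the library sets, at -0.42, -0.36, -0.38 and -0.32, and the intervals are narrowest for Cpt2 and widest for Pdk4.

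Set against each other per length, the genes kept a nearly fixed order. CPM per kilobase of exon averaged 682 for Acaa1b, 437 for Cyp4a10, 349.7 for Cyp4a14, 194 for Ehhadh, 72.7 for Ppara, 62.6 for Cpt2, 47.0 for Cpt1a and 7.13 for Pdk4. Exon lengths were taken from GENCODE M21, another annotation than that of the counts. Acaa1b, Ehhadh, Cpt2 and Cpt1a were each above the next gene in 24 of 24 libraries. Neighbours that changed places were Cyp4a10 above Cyp4a14 in 21 of 24, Cyp4a14 above Ehhadh in 19 and Ppara above Cpt2 in 20, so these pairs were not apart in every mouse.

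The spread between mice within groups set the precision. As an SD of log2 CPM around the group means it was 0.14 for Cpt2, below the median of 0.21 over all tested genes, and placed Cpt2 at percentile 22. Ppara, Cpt1a, Acaa1b and Ehhadh, at 0.30 to 0.31, lay between the 70.1 and 72.2 percentiles. Cyp4a10 at 0.55 was at the 93.8 percentile, Cyp4a14 at 0.86 at the 98.9 and Pdk4 at 1.08 at the 99.5. The gene that was called was also the one with the least spread, and a difference of its size would have been within 1 SD for Cyp4a10, Cyp4a14 and Pdk4.

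The spread was shared. After the group mean was taken off each gene, all 28 pairs of genes were correlated over the 24 libraries, with p-values from 100000 permutations within groups and Benjamini-Hochberg adjustment over the 28. Of these, 16 pairs passed an adjusted p of 0.05 by Pearson's r and by Spearman's rho. They were the 15 pairs among Cpt2, Acaa1b, Ehhadh, Cyp4a10, Cyp4a14 and Pdk4, plus Ppara with Cpt1a. Ppara and Cpt1a passed with none of the other 6.

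The closest pair was Cyp4a10 and Cyp4a14, with r = 0.91 and rho = 0.88 (permutation p = 1e-05, the smallest the permutations can give, adjusted 9.33e-05 for each). Without the 2 libraries farthest from the median r was 0.90, and within the sets it was 0.91 in the last 12 and 0.90 in the first 12 libraries. Cpt2 and Acaa1b had r = 0.86 (permutation p = 1e-05, adjusted 9.33e-05) and rho = 0.82 (permutation p = 3.00e-05, adjusted 2.10e-04), and r was 0.84 without the farthest 2, 0.94 in the last 12 and 0.79 in the first 12. The loosest of the 15 was Cpt2 with Pdk4, at r = 0.56 (permutation p = 0.00764, adjusted 0.0143) and rho = 0.57 (permutation p = 0.00822, adjusted 0.0144). Its r was 0.54 without the farthest 2, 0.58 in the last 12 and 0.54 in the first 12. With only the 12 MDA-MB-231 EV and MCF10A/miR-122 EV libraries 13 of the 28 pairs passed, and with only the 12 of MCF10A EV and PBS 9 did.

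Ppara and Cpt1a had r = 0.85 (permutation p = 2.10e-04, adjusted 7.16e-04) and rho = 0.69 (permutation p = 0.00267, adjusted 0.00612). Without the 2 farthest libraries r was 0.69, and it was 0.40 in the last 12 and 0.93 in the first 12, so the relation leans on the MCF10A EV and PBS libraries. Ppara passed with none of the other 6. With Cyp4a14 r was 0.11 (permutation p = 0.619, adjusted 0.693) and rho 0.0096 (permutation p = 0.966, adjusted 0.966). With Acaa1b r was -0.17 (permutation p = 0.356, adjusted 0.433) and rho -0.33 (permutation p = 0.0999, adjusted 0.138). With Ehhadh r was 0.42 (permutation p = 0.0854, adjusted 0.133) and rho 0.29 (permutation p = 0.198, adjusted 0.241), and r was -0.25 in the last 12 libraries and 0.64 in the first 12. A relation of the receptor gene's RNA to these 6 genes was not resolved over the 24 mice.

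**Figure D3:**
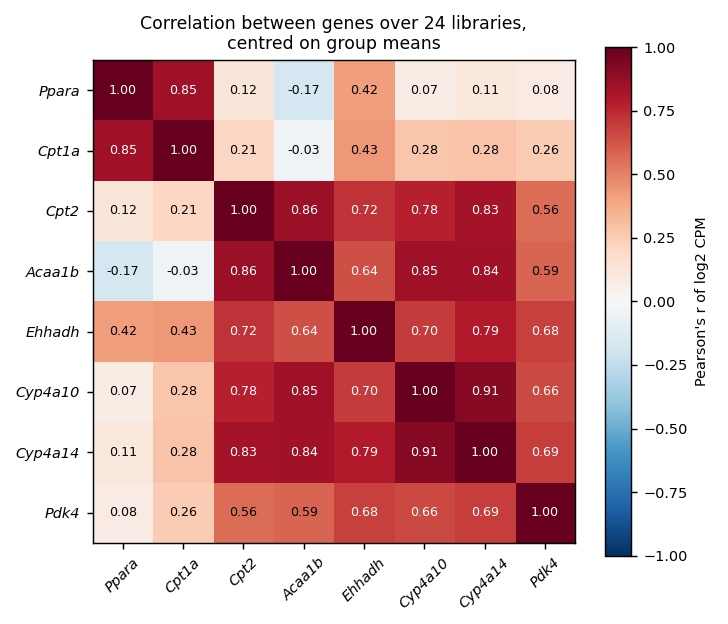
Pearson's r of log2 CPM between each pair of the 8 genes over 24 libraries after centring on group means (colour and printed value). The lower right block of 6 genes holds values of 0.56 to 0.91, and Ppara and Cpt1a form a pair of their own at 0.85.

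**Figure D4:**
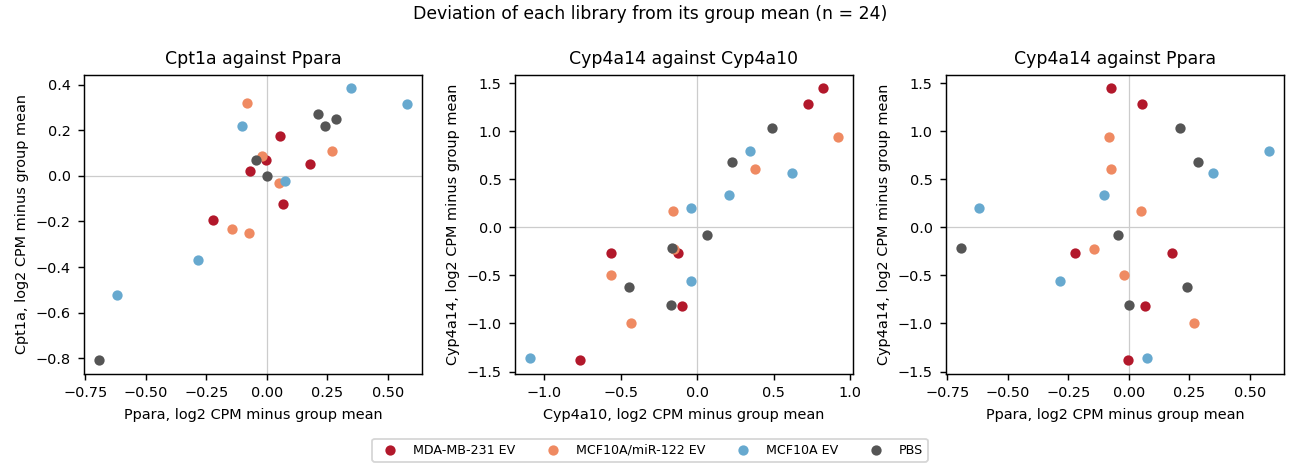
Deviation of each library from its group mean in log2 CPM for Cpt1a against Ppara, Cyp4a14 against Cyp4a10 and Cyp4a14 against Ppara (24 points a panel, coloured by group). Points follow a line in the first 2 panels (r = 0.85 and 0.91) and not in the third (r = 0.11), and 1 PBS and 1 MCF10A EV library lie at the lower left of the first.

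The mice at the upper end were the same for several genes. MDA-MB-231 EV replicates 3 and 6 held the 2 highest values of the 24 for Acaa1b, Cyp4a10 and Cyp4a14. Pdk4 was at 52.2 and 62.3 CPM in them, and Ehhadh at 703 and 829.3 CPM. MCF10A EV replicate 3 had the highest Pdk4 of all, 80.9 CPM, with Ehhadh at 903 CPM, and PBS replicate 6 had the highest Ehhadh, 912 CPM, with Cyp4a14 at 1557 CPM.

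Genes most like each of the 8 were named by Pearson's r over the same 24 centred libraries, as a description. Acaa1b was most like its copy Acaa1a (0.99), then Acot8 (0.92) and Eci1 (0.91), which encode a peroxisomal thioesterase and a mitochondrial enoyl-CoA isomerase. Cyp4a10 was most like Cyp4a31 (1.00) and Cyp4a32 (0.98), with which it shares sequence, and the pseudogene Cyp4a29-ps (0.97). Cyp4a14 was most like Retsat (0.93), a retinol saturase gene, then Acot1 (0.91) and Cyp4a31 (0.91). Cpt2 was also most like Retsat (0.91), followed by Dhrs4 (0.89) and Ephx2 (0.89), and Ehhadh was most like Acsl1 (0.89), which activates long-chain fatty acids, Adra2a (0.89) and Hsdl2 (0.88). Pdk4 was most like Slc16a1 (0.87), a monocarboxylate transporter gene, Lbp (0.84) and Tab2 (0.84). Ppara was most like Fzd1 (0.90), Tbc1d15 (0.88) and Crbn (0.86), and Cpt1a like Atp6v1c1 (0.91), Tmtc2 (0.86) and Ppara (0.85). No gene among the 3 most like Ppara was among those of the 6 genes that moved together.

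Because the 6 genes moved together, their promoters were read where a RefSeq window was given, for 6 of the 8 genes (Cyp4a10 and Cyp4a14 had none). Each window runs from 250 bases before to 50 after the start, in GRCm38.p6. The repeat bound by PPAR alpha with its partner is a pair of AGGTCA sites 1 base apart, AGGTCANAGGTCA, and it was searched on both strands by its 12 fixed bases. Shown are the windows of Cpt2, the gene with the called difference, and of Acaa1b and Ehhadh, which moved with it. The first best match found is in capitals, and other stretches can tie with it. The windows lie at chr4:107923540-107923839, chr9:119157044-119157343 and chr16:21787785-21788084, all on the minus strand.
Cpt2: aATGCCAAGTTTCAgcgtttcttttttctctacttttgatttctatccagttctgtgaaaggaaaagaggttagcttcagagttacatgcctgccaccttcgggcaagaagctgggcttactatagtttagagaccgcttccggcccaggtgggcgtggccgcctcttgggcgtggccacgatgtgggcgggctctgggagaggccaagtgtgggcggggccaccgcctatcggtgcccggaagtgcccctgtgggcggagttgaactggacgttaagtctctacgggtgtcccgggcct
Acaa1b: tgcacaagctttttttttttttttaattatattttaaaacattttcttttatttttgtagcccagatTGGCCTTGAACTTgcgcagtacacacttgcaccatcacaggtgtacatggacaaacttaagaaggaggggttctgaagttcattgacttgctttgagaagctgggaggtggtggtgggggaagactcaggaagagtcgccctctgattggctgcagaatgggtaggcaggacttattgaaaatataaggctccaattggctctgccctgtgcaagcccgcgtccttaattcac
Ehhadh: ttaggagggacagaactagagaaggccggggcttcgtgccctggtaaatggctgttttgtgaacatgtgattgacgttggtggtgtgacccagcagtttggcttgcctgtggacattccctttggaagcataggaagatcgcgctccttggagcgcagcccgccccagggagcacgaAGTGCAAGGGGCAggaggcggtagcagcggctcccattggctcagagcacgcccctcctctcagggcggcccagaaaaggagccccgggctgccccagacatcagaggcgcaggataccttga
The best match had 5 mismatches in Cpt2 and 4 in each of Acaa1b, Ehhadh, Ppara, Cpt1a and Pdk4. Of all 32851 promoter windows, 99.9% hold a match with at most 5 mismatches and 79.8% one with at most 4, so these letters do not set the genes apart. A single AGGTCA was found in Cpt1a alone, and 16.3% of all windows hold one. The windows do not reach more distant sequence, and nothing about binding follows from them.

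The rest of the pathway was read from lists of other genes, with the shares of all genes given above as the background. In mitochondrial beta-oxidation, 3 of 23 genes were lower and 0 higher in MCF10A/miR-122 EV than in PBS, and the median log2 difference was -0.09, against 0.001 over all genes. Acsl1 fell to 814 ± 91.4 CPM, against 1136 ± 235 CPM in PBS (SD, n = 6 each; log2 -0.48, SE 0.13, adjusted p = 0.0143 by edgeR). Hadhb, the thiolase subunit of the mitochondrial trifunctional protein, was at 142 ± 17.5 CPM, against 179.6 ± 20.1 CPM in PBS (log2 -0.34, SE 0.11, adjusted p = 0.0288 by edgeR). Etfdh, which passes electrons on to the respiratory chain, was also lower (-0.26, adjusted p = 0.0364 by edgeR). Against MCF10A EV, 2 of 23 were lower in MCF10A/miR-122 EV, Acsl1 (-0.39) and Hadhb (-0.32).

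In MDA-MB-231 EV against PBS none of the 23 was lower and 1 was higher, Cpt1b, the muscle-type carnitine palmitoyltransferase. It had 7.64 ± 2.11 CPM in MDA-MB-231 EV, against 3.76 ± 0.988 CPM in PBS (SD, n = 6 each; log2 1.03, SE 0.21, adjusted p = 0.00219 by edgeR). The muscle marker Acta1 went the other way, at 1.41 ± 0.254 CPM against 4.05 ± 0.463 CPM in PBS. Cpt1b was also above PBS, without passing, in MCF10A EV (0.77, adjusted p = 0.0636 by edgeR) and in MCF10A/miR-122 EV (0.51, adjusted p = 0.0910). In MDA-MB-231 EV over MCF10A EV it differed by 0.25 (adjusted p = 0.494 by edgeR). None of the 23 passed by edgeR in MCF10A EV over PBS, in MDA-MB-231 EV over MCF10A EV or in MDA-MB-231 EV relative to MCF10A/miR-122 EV.

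Peroxisomal genes gave 4 lower of 17 in MCF10A/miR-122 EV against PBS and 0 higher, with a median log2 difference of -0.22. That median is the value of Acaa1a, the near copy of Acaa1b, whose split of reads is uncertain. Crot, the peroxisomal carnitine octanoyltransferase, fell to 291 ± 101 CPM, against 615 ± 77.6 CPM in PBS (SD, n = 6 each; log2 -1.08, SE 0.20, adjusted p = 6.43e-04 by edgeR). Amacr, a racemase of branched-chain fatty acids, differed by -0.43 (SE 0.084, adjusted p = 0.00100 by edgeR). The fourth lower gene beside Abcd2 was Acot3, a thioesterase (-0.87, adjusted p = 0.0489 by edgeR). Acot3 was also below PBS, without passing, in MDA-MB-231 EV (-0.89, adjusted p = 0.0562 by edgeR) and in MCF10A EV (-1.11, adjusted p = 0.0692). Against PBS, Crot was at -0.59 in MDA-MB-231 EV (adjusted p = 0.0524 by edgeR) and at -0.13 in MCF10A EV (adjusted p = 0.768). Abcd2, a transporter of very long-chain fatty acids, was lower than in PBS in all 3 EV groups. It had 56.5 ± 11.8 CPM in MDA-MB-231 EV, 51.7 ± 7.93 CPM in MCF10A/miR-122 EV and 36.4 ± 7.63 CPM in MCF10A EV, against 83.7 ± 24.4 CPM in PBS (SD, n = 6 each). The log2 differences were -0.57, -0.69 and -1.20, with adjusted p-values of 0.0355, 0.00782 and 0.00328 by edgeR. It was the 1 gene of the list called in MDA-MB-231 EV over PBS and in MCF10A EV over PBS, and against MCF10A EV it was higher in MDA-MB-231 EV (0.64), as the 1 call, and in MCF10A/miR-122 EV (0.51), beside 2 lower genes, Crot and Amacr. None of the 17 passed by edgeR in MDA-MB-231 EV relative to MCF10A/miR-122 EV.

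Of 8 genes of omega-oxidation beside the pair above, 1 passed in 1 comparison. This was Cyp4a12a in MDA-MB-231 EV over MCF10A EV (1.46, SE 0.41, adjusted p = 0.0284 by edgeR). Cyp4a12a has a near copy in Cyp4a12b and is uncertain for that reason. It averaged 11.4 ± 9.01 CPM in MDA-MB-231 EV and 11.6 ± 4.38 CPM in PBS (SD). The log2 difference between them was -0.04 (adjusted p = 0.962 by edgeR). MCF10A EV was the lowest group, at 4.12 ± 1.52 CPM, without passing against PBS (-1.50, adjusted p = 0.0661 by edgeR). MCF10A/miR-122 EV had 5.63 CPM and did not pass against PBS either (-1.06, adjusted p = 0.0660 by edgeR).

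Other known targets of PPAR alpha moved in both directions. Of 24, 3 were higher and 0 lower in MDA-MB-231 EV than in PBS, 4 were higher and 2 lower in MCF10A/miR-122 EV than in PBS, and 1 was higher and 1 lower in MCF10A EV than in PBS. Against MCF10A EV, 1 was higher and 4 were lower in MCF10A/miR-122 EV, and none passed by edgeR in MDA-MB-231 EV, nor in MDA-MB-231 EV relative to MCF10A/miR-122 EV. Angptl4, an inhibitor of lipoprotein lipase, was higher than in PBS in all 3 EV groups. It had 241 ± 40.5 CPM in MDA-MB-231 EV, 218 ± 52.0 CPM in MCF10A/miR-122 EV and 203 ± 56.7 CPM in MCF10A EV, against 114 ± 29.0 CPM in PBS (SD, n = 6 each). The log2 differences were 1.08, 0.94 and 0.83, with adjusted p-values of 5.33e-04, 0.00103 and 0.0268 by edgeR. Plin2, a coat protein of lipid droplets, was lower in MCF10A/miR-122 EV, at 316 ± 62.1 CPM, against 589 ± 169 CPM in MCF10A EV and 616 ± 94.9 CPM in PBS, with log2 differences of -0.90 and -0.96. Cd36, a fatty acid transporter, was lower in MCF10A EV than in PBS (-0.91, SE 0.20, adjusted p = 0.0255 by edgeR). Fgf21, a fasting hormone gene, was lower in MCF10A/miR-122 EV than in MCF10A EV (-1.76, SE 0.46, adjusted p = 0.00980 by edgeR), at 1.75 ± 0.530 CPM in MCF10A/miR-122 EV and 5.91 ± 3.08 CPM in MCF10A EV (SD, n = 6 each).

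The receptors and cofactors that passed were higher in MDA-MB-231 EV or MCF10A/miR-122 EV, with 1 exception. Of 17, 3 were higher in MDA-MB-231 EV than in PBS and 4 in MCF10A/miR-122 EV than in PBS, and 0 were lower in either. Against MCF10A EV, 2 were higher and 1 lower in MDA-MB-231 EV and 3 were higher in MCF10A/miR-122 EV, and none passed by edgeR within the sets. Lpin1, which assists PPAR alpha with Ppargc1a, averaged 399 ± 91.3 CPM in MDA-MB-231 EV, 499 ± 198 CPM in MCF10A/miR-122 EV and 288 ± 114.9 CPM in MCF10A EV, against 103 ± 92.5 CPM in PBS (SD, n = 6 each). Its log2 differences from PBS were 1.95, 2.27 and 1.48, with adjusted p-values of 0.00297, 5.39e-04 and 0.0657 by edgeR, so the last did not pass. Against MCF10A EV it passed in neither group, at 0.47 in MDA-MB-231 EV (adjusted p = 0.525 by edgeR) and 0.79 in MCF10A/miR-122 EV (adjusted p = 0.183). Lpin2, its relative, was higher than in PBS by 1.04 in MDA-MB-231 EV and 1.12 in MCF10A/miR-122 EV, and higher than in MCF10A EV by 0.77 and 0.86. Ppargc1a, the coactivator, counted among the targets above, was higher than in PBS by 0.88 in MDA-MB-231 EV (adjusted p = 0.0498 by edgeR) and by 1.48 in MCF10A/miR-122 EV (adjusted p = 0.00113). Against MCF10A EV it did not pass, at 0.22 (adjusted p = 0.707 by edgeR) and 0.82 (adjusted p = 0.0511). The exception was Rxrb, a retinoid X receptor gene, which was lower in MDA-MB-231 EV than in MCF10A EV (-0.25, SE 0.071, adjusted p = 0.0298 by edgeR). Rxrb had 25.6 CPM in MDA-MB-231 EV and 26.2 CPM in PBS (log2 -0.03, adjusted p = 0.813 by edgeR). MCF10A EV was the higher group, at 30.5 CPM, without passing against PBS (0.22, adjusted p = 0.124 by edgeR).

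Few genes of the complex that Pdk4 acts on, or of its control, passed. Of 10 genes of pyruvate dehydrogenase and its control beside Pdk4, 1 was higher in MDA-MB-231 EV than in PBS and 2 were higher in MCF10A/miR-122 EV than in PBS, and none was lower. The median log2 differences of the 10 were 0.006 and 0.12. Against MCF10A EV, 1 was higher in either group, and none passed by edgeR within the sets. Dlat, the acetyltransferase subunit, was called in all 4 crossing comparisons. It averaged 59.6 ± 6.02 CPM in MDA-MB-231 EV and 57.5 ± 7.91 CPM in MCF10A/miR-122 EV, against 43.5 ± 3.74 CPM in MCF10A EV and 45.5 ± 3.65 CPM in PBS (SD, n = 6 each). Its log2 difference was 0.39 in MDA-MB-231 EV over PBS (adjusted p = 0.00498 by edgeR) and 0.34 in MCF10A/miR-122 EV over PBS (adjusted p = 0.00922). These differences cross the sets, as that of Cpt2 does.

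**Figure D5:**
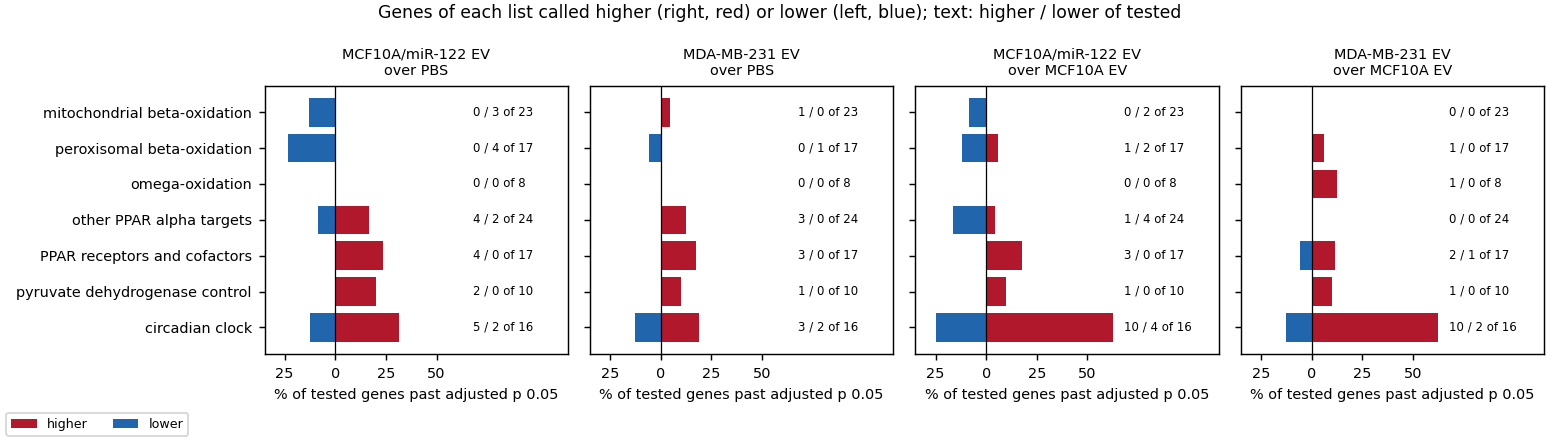
Percent of the tested genes of each list (rows) called higher (right, red) or lower (left, blue) in the 4 comparisons that cross the library sets, with counts printed as higher / lower of tested. In MCF10A/miR-122 EV over PBS 3 of 23 mitochondrial and 4 of 17 peroxisomal genes are lower, and the clock list has the most calls in the comparisons with MCF10A EV, 10 higher of 16 in each.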

How the data were processed

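The deposited values are whole-number read counts per gene symbol for 24 liver libraries, without normalization. A kit for stranded mRNA libraries was used per the labels' protocols, and bcl2fastq 2.18.0.12, TopHat2 and the mouse build mm9 were used per the submitters' processing notes. The counting tool, its annotation, strand setting and treatment of reads with several matches are not named in these sources, so counts of genes with near copies are uncertain. The 27 rows that share a symbol (0.0744% of counts) were left out.

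Groups follow the titles, and each library is taken as 1 mouse, which the labels do not state. Were mice split over libraries, the p-values would reflect technical spread alone. The counts were tested with edgeR 4.0.16 in R 4.3.3 (TMM scaling, filterByExpr, quasi-likelihood F test, 1 fit of all 24 libraries, two-sided), adjusted by Benjamini-Hochberg over 13773 genes, threshold 0.05. Levels are CPM computed from the counts, and log2 CPM used a prior count of 2. Totals of 21.3 to 33.7 M counts and a common biological coefficient of variation of 16.8% set the precision. Correlations used 100000 permutations within groups (SciPy 1.17.1). Shared sequence and exon lengths came from GENCODE M21 transcripts, another build than the counts, for names and lengths only. The fit was tested on simulated data.

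The 8 genes, the lists and the tests were chosen with earlier results of these data known. Named beyond the 8 are genes taken from the up to 3 called genes with the smallest p of each list and comparison. Not every such gene is named, so they are a selection. Pdha1, with the smallest p of the pyruvate dehydrogenase list in MCF10A/miR-122 EV over PBS (log2 0.26, adjusted p = 0.00679 by edgeR), is 1 left out above. The 3 genes most like each of the 8, and genes that share sequence with them, are named too. Acot3, Serpina3a, Acta1 and Npas2 fall outside this rule and were picked with their values in view. Dbp falls within it, in MCF10A EV over PBS, but was also picked with its values in view. A gene and the list that held it are not reported here. The alternatives were other scaling (RLE), no filter, a strict filter (at least 1 CPM in at least 12 libraries), DESeq2 1.42.0, limma-voom (limma 3.58.1), a replicate block, only the groups compared, identities from the library names and leaving out each library.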

Additional observations from a re-analysis of the deposited data

Results flagged for a closer look

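Cpt1a in PBS replicate 5 had 234 CPM, far below the other 5 PBS libraries, which had 409 to 495 CPM. It was the 1 of 32 gene and group combinations in which a library lay this far from the rest, and chance alone gives about 1 in 20. The same library had the lowest Ppara of its group, 183 CPM, and the highest Npas2, 12.4 CPM. The part of these in the low Cpt1a value was not tested.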

How the results depend on the processing

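The count of the 8 genes called was unchanged, at 1 or 0 as reported, with RLE scaling, without a filter, with the strict filter, with DESeq2, with limma-voom, with only the groups compared and with identities from the library names, and Cpt2 kept its 4 calls in all of these. Correlations between same-numbered libraries ran from -0.43 to 0.37. They were not set against other pairs, so whether the numbers pair the mice was not tested. With a replicate block 2 genes were called in MCF10A/miR-122 EV over PBS, Cpt1a being added (-0.36, adjusted p = 0.0487 by edgeR), and the block changed no other count. Leaving out both MCF10A EV replicate 4 and PBS replicate 5, an alternative chosen after seeing the data, gave 2 called genes in MCF10A/miR-122 EV over PBS and 2 in MDA-MB-231 EV over PBS. Leaving out 1 library at a time gave 1 to 2 called genes in MCF10A/miR-122 EV over PBS, 1 to 2 in MDA-MB-231 EV over PBS when the joint omission is counted, 1 to 2 in MCF10A/miR-122 EV over MCF10A EV and 0 to 1 in MDA-MB-231 EV over MCF10A EV. The count of correlated pairs was 16, and 16 without centring, 13 in the last 12 libraries and 9 in the first 12, where fewer libraries entered. Over all genes, MCF10A EV over PBS had 147 calls, against 27 with only those groups in the fit, 414 by DESeq2, 412 with the joint omission and 26 to 741 with 1 library left out. MDA-MB-231 EV relative to MCF10A/miR-122 EV had 35, against 23 with only those groups, 98 by DESeq2 and 13 to 82 with 1 library left out.

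Sign changes of single genes were all in differences that had not passed. Of 576 gene values with 1 library left out, 59 changed sign, 2 gained and 2 lost a call, and of 416 under other settings 36 changed sign and 3 gained a call. The cause was not tested, except that exchanging identities exchanges groups. In MDA-MB-231 EV over PBS, Cyp4a10 was at -0.0011 with RLE and with DESeq2, -0.0024 without a filter, -0.085 with limma-voom, -0.095 with the block, -0.0090 with only the groups compared and -0.029 with the joint omission. Ppara there was at 0.015 with limma-voom and 0.010 with the block, and Cyp4a14 at -0.060 and -0.076. In MCF10A/miR-122 EV over MCF10A EV, Acaa1b was at -0.0088 with limma-voom and -0.00076 with the block. In MDA-MB-231 EV relative to MCF10A/miR-122 EV, Cyp4a14 was at -0.099 and -0.14. Ehhadh in MDA-MB-231 EV over MCF10A EV was at 0.0014 without a filter. The joint omission put Cyp4a14 at -0.038 and Pdk4 at 0.23 in MCF10A/miR-122 EV over PBS, Ppara at -0.045 in MCF10A/miR-122 EV over MCF10A EV and Cpt1a at -0.066 in MDA-MB-231 EV over MCF10A EV.

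With identities from the library names, MCF10A/miR-122 EV over PBS had Cyp4a10 at 0.0067 and Pdk4 at 0.64, and MDA-MB-231 EV over PBS had them at -0.28 and -0.018. Against MCF10A EV, Cpt1a and Cyp4a10 were at -0.065 and -0.18 in MDA-MB-231 EV and at 0.025 and 0.11 in MCF10A/miR-122 EV. Between these groups all 8 turned: Ppara -0.19, Cpt1a -0.090, Cpt2 -0.065, Acaa1b -0.12, Ehhadh -0.12, Cyp4a10 -0.29, Cyp4a14 -0.13 and Pdk4 -0.66.

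Ranges were taken over the settings with 1 library left out and, where it was run, the joint omission chosen after seeing the data. In MDA-MB-231 EV over PBS they were -0.13 to 0.040 for Ppara, -0.17 to 0.016 for Acaa1b, -0.19 to 0.13 for Cyp4a10 and -0.20 to 0.41 for Cyp4a14. They were -0.21 to 0.28 for Cyp4a14 and -0.73 to 0.23 for Pdk4 in MCF10A/miR-122 EV over PBS, and -0.23 to 0.054 for Cyp4a10 in MCF10A EV over PBS. In MDA-MB-231 EV over MCF10A EV they were -0.066 to 0.11 for Cpt1a, -0.14 to 0.17 for Ehhadh, -0.086 to 0.24 for Cyp4a10, -0.43 to 0.12 for Cyp4a14 and -0.70 to 0.12 for Pdk4. In MCF10A/miR-122 EV over MCF10A EV they were -0.045 to 0.20 for Ppara, -0.16 to 0.015 for Cpt1a, -0.081 to 0.075 for Acaa1b and -0.19 to 0.058 for Ehhadh. Between MDA-MB-231 EV and MCF10A/miR-122 EV they were -0.017 to 0.18 for Ehhadh and -0.23 to 0.36 for Cyp4a14.

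Counts were ample for these genes, since even Pdk4, the lowest, had 5.96 CPM or more in libraries of at least 21.3 M counts, and the spread between mice set the width of the intervals.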

Other observations

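The 2 fasting-related genes Fgf21 and Angptl4 were set beside the 8 as a description, by Pearson's r over the 24 libraries after centring on group means and with no test. The hormone gene Fgf21 had its highest values with Ehhadh (0.77), Cpt2 (0.65), Cyp4a14 (0.65) and Pdk4 (0.63). With Cyp4a10 it was at 0.48, with Acaa1b at 0.47, with Cpt1a at 0.41 and with Ppara at 0.37. Angptl4 was at 0.61 to 0.70 with the 6 genes that moved together and at 0.26 with Cpt1a and 0.086 with Ppara. Group differences and differences between mice went apart for Angptl4 and Cpt2: across groups Angptl4 was higher and Cpt2 lower in MDA-MB-231 EV and in MCF10A/miR-122 EV than in PBS, while within groups they were like each other (0.70).

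The ratio of the cytochrome pair differed between mice as well. Cyp4a14 had 0.486 to 1.40 times the CPM of Cyp4a10 over the 24 libraries, with a median of 0.990. The ratio of Cyp4a10 to its near copy Cyp4a32 was steadier, within 1.82 to 2.32. These genes share sequence, and how shared reads were assigned is not given, so the part of such reads in that ratio was not tested.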
